A study of Mus musculus with 38 samples.

Results

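The genes described here were grouped as markers of mature dendritic cells (DC) that migrate from the skin to the draining lymph node. The populations with high levels all came from the node and include CD64+ cells that the titles call not DC. Maturation, migration and location in the node therefore cannot be told apart here. The set named 10 genes: Fscn1, Apol7c, Serpinb6b, Anxa3, Il2ra, H2-M2, Cacnb3, Socs2, Il4i1 and Clu. They were chosen by their log2 array values, as far higher in lymph node than in dermal CD11b+ DC, or as known genes of mature DC. The difference between node and dermal DC is therefore given below as a description, with no test, and no cutoff came with the choice. Of the 10, 8 had a probe set of their own among the 19937 genes tested. Cacnb3, a calcium channel beta subunit, had no probe set in the annotation used, and the single probe set of Il4i1, a secreted amino acid oxidase, also names the overlapping gene Il4i1b, so neither is given a value.

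RNA of sorted CD11b+ cells from female wild-type C57BL/6 mice aged 6 weeks was hybridised to 38 Affymetrix Gene 1.0 ST arrays, with 3 arrays for each of 13 populations except dermal P1 after DNFB, which had 2. Replicates came from independent pools of mice, and 5 to 20 ng of RNA was amplified before hybridisation. DNFB (2,4-dinitrofluorobenzene) is a contact sensitiser, of which 10 µl at 0.5% was put on the ears 3 days before harvest; all other mice were untreated. Values are log2 intensities, so a difference of 1 is a doubling. The level 4.02, below which 40% of the deposited values lie, is called the low level here. No detection calls were used, and the size of a difference from a group below the low level depends on the bottom of the array scale.

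At steady state the populations were blood Ly6Chi monocytes and 6 populations of the ear dermis. P1 was CD64low, Ly6Chi, CCR2+ and MHC II negative; P2 was CD64+, Ly6Chi, CCR2+ and MHC II+; P3 was CD64+, Ly6Clow, CCR2+ and MHC II+. P4 and P5 were CD64+, Ly6C- and CCR2- macrophages without and with MHC II. Dermal DC were CD11b+, CD24-, Ly6C-, CD64- and MHC II+. Migratory DC of the lymph node were CD11c+, MHC II high, CD11b+, CD24-, Ly6C- and CD64-. After DNFB, P1, P2, dermal DC and node migratory DC were sorted again, and CD64+, Ly6C+ cells of the CD11c+, MHC II high gate of the node were taken only then. The labels name these last cells in different ways, as not DC in the titles, as monocytes in the cell type field and as dermal DC in the description, and they are called node CD64+ cells here. All groups share sex, strain and age, and each was sorted by surface protein, so a population can hold cells of more than 1 type.

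The sort was checked on the genes of its markers. Levels of Itgam, which encodes CD11b, averaged 4.62 and 4.74 in node migratory DC at steady state and after DNFB against 9.52 in steady-state dermal DC, although both were sorted as CD11b+, and Ccr2 was at 4.37 and 4.23 against 10.32. The mean of 10 conventional DC markers was lower in node migratory DC, at 7.05 and 7.44, than in dermal DC, at 8.30 and 8.88. Among these markers Kmo was at 3.70 and 4.07 in node migratory DC against 7.05 and 8.69 in dermal DC. Flt3, the receptor of a DC growth factor and also on that list, was at 9.74 and 10.48 in node migratory DC. The mean of 11 macrophage markers lay between 4.46 and 4.99 on the 6 arrays of node migratory DC. Cd24a was at 8.94 and 9.53 there and at 8.83 and 9.82 in dermal DC, although both were sorted as CD24-. Fcgr1, which encodes CD64, was at 7.98 in dermal DC after DNFB, against 5.94 before, although both were sorted as CD64-. In steady-state dermis Fcgr1 was at 8.05 in CD64low P1 and at 7.99 in CD64+ P2. Ccr2 was at 8.14 in P4 and 9.15 in P5, both sorted as CCR2-, against 10.14 to 10.67 in P1 to P3. H2-Ab1, an MHC II gene, was at 9.93 in P1 and 9.63 in P4, both sorted as MHC II negative. In the MHC II+ P2 and P5 it was at 11.95 and 11.85.

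Dermal DC that sense danger, and some that do so without an infection, raise the chemokine receptor CCR7, follow its ligands into lymphatic vessels and arrive in the node as mature cells. Maturation changes the cytoskeleton, antigen presentation and cytokine signalling together, and the genes here belong to these different functions. Fscn1 encodes fascin, which bundles actin in the dendrites and protrusions of mature DC. Serpinb6b encodes an intracellular protease inhibitor of the clade B serpins, and Anxa3 a calcium-dependent membrane-binding annexin. Il2ra encodes CD25, the alpha chain that raises the affinity of the interleukin 2 receptor, and is also high on regulatory and activated T cells. Socs2 encodes a feedback inhibitor of cytokine receptor signalling. H2-M2 is a nonclassical MHC class I gene, Apol7c belongs to the apolipoprotein L family and Clu encodes clusterin, a secreted chaperone.

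The promoters of 5 of these genes were in the RefSeq table of mouse promoters (GRCm38.p6), and they are shown because 3 of the genes rose together in dermal DC after DNFB (Il2ra, Fscn1, Serpinb6b), 1 fell (H2-M2) and 1 passed in neither direction (Apol7c). Each sequence is the 250 bases before the transcription start, 5′ to 3′ on the gene's own strand. Il2ra lies at chr2:11642542-11642791 on the plus strand, Fscn1 at chr5:142960105-142960354 on the plus strand, Serpinb6b at chr13:32965011-32965260 on the plus strand, Apol7c at chr15:77533316-77533565 on the minus strand and H2-M2 at chr17:37483555-37483804 on the minus strand. Capitals mark matches, on either strand, to the NF-kB pattern (GGG and CC with 5 bases of any kind between them) and, in Apol7c, also to the interferon response pattern (GAAA and GAAA with 2 bases between them).
Il2ra: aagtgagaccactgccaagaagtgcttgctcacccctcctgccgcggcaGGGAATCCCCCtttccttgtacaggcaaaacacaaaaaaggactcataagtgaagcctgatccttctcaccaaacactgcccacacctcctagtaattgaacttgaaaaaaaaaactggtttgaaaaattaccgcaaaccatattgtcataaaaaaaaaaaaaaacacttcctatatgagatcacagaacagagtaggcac
Fscn1: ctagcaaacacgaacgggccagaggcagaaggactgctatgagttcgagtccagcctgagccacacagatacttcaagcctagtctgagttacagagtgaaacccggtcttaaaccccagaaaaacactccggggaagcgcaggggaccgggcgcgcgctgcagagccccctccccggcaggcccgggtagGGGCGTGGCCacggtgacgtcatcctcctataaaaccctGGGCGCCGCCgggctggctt
Serpinb6b: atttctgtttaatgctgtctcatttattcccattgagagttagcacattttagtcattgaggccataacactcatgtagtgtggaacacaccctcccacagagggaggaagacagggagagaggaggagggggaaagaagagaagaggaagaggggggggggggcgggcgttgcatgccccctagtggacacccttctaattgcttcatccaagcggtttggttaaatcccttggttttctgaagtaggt
Apol7c: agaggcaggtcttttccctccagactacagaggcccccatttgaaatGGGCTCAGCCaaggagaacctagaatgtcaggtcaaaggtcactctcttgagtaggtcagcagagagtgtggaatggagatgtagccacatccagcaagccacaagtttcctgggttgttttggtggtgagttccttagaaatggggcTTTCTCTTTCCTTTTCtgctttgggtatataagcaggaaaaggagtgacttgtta
H2-M2: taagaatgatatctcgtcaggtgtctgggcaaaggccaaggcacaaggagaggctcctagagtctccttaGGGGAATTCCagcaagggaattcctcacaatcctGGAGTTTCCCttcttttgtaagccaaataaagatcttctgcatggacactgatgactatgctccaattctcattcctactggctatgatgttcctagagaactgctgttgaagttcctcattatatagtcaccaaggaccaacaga
In windows of 300 bases around the start, searched on both strands, the NF-kB pattern occurred in 4 of the 5 promoters and in 50.8% of all 32851 promoters of the table. Its matches began 201 bases before the start in Il2ra, where 2 overlapping matches share one stretch, 59 and 20 bases before the start in Fscn1, 203 in Apol7c, and 180 and 146 in H2-M2; Fscn1 held 1 more after the start, at position 17. The Serpinb6b window held no match to any pattern searched. It lies inside the gene span, which begins at base 32956811 of chr13, and sequence before that base was not searched. The interferon response pattern occurred in Apol7c, at 55 and 49 bases before the start, and in 3.44% of all promoters. The patterns TTCNNNGAA (STAT), TGANTCA (AP-1) and the ETS-IRF composite (GGAA and GAAA with 2 bases between them) matched none of the 5 windows and 8.3%, 7.81% and 2.72% of all promoters. A match is only a match of letters.

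Levels of all 8 genes were highest in the same populations, whose order among themselves differed between genes. The 3 lymph node populations ranked first for every gene, and no array of blood or dermis reached the lowest node array of that gene. The smallest separation was that of Clu, with 8.48 on the lowest node array and 7.76 on the highest dermal array. From the lowest to the highest population mean the genes spanned between 5.76 (Anxa3) and 8.69 (Apol7c) log2 units. In bulk samples such as these, fewer cells with a transcript and less transcript per cell cannot be told apart.

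**Figure D1:**
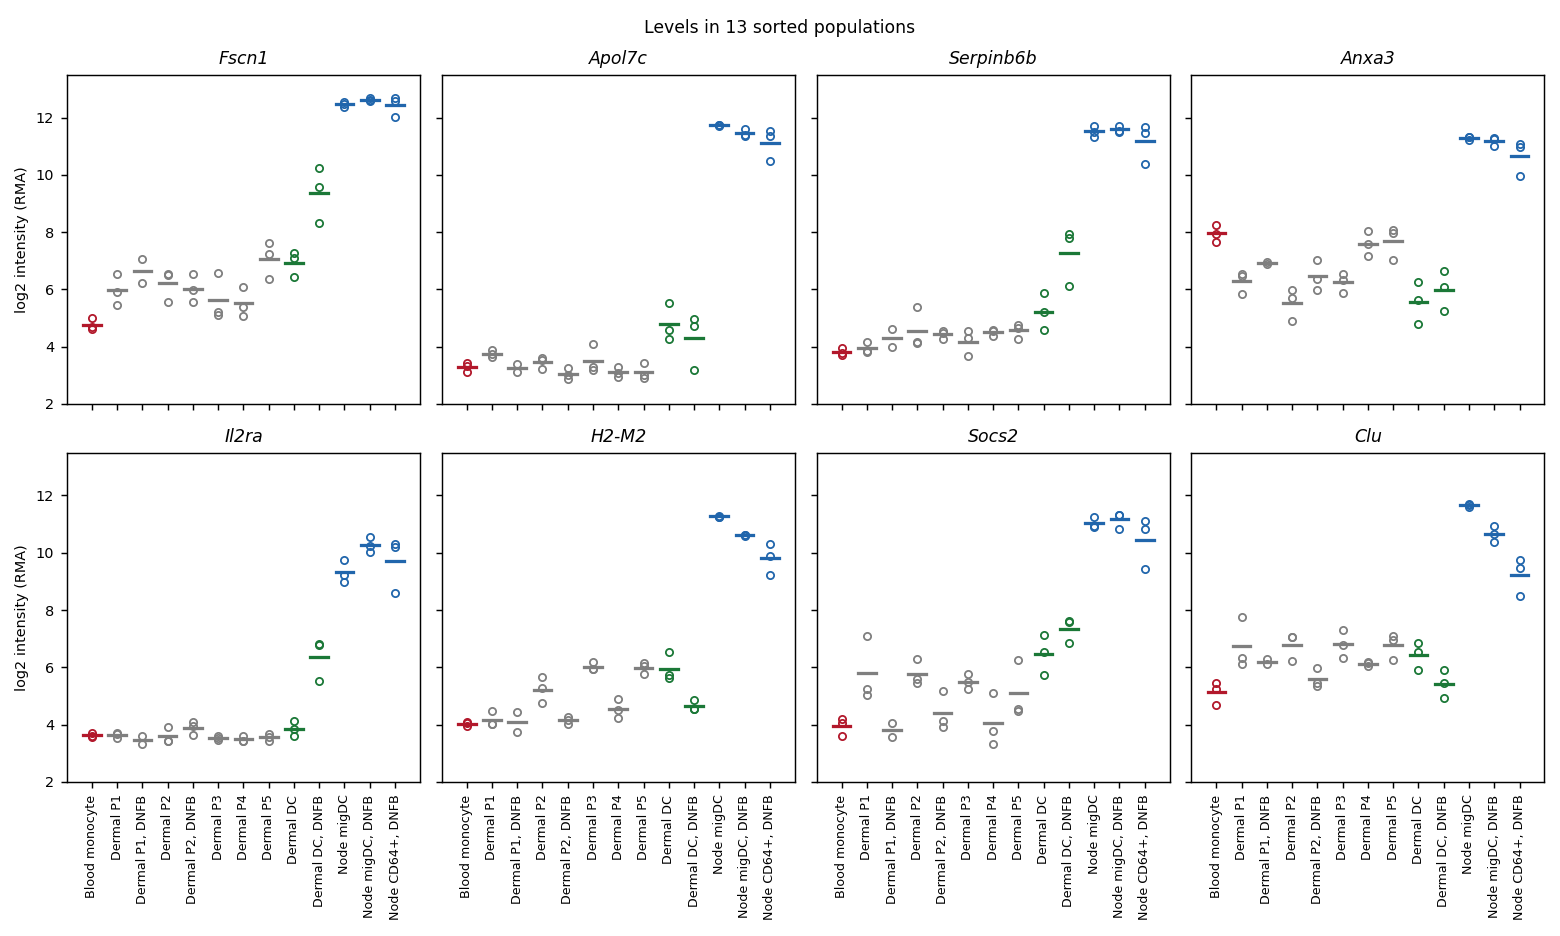
Log2 intensity of each gene (vertical axis, log2 RMA intensity) in the 13 populations (horizontal axis); circles are arrays, bars are population means, red is blood, grey dermal P1 to P5, green dermal DC and blue lymph node. The blue arrays stand above all others in every panel, and the green arrays after DNFB stand clear above steady-state dermal DC for Fscn1, Serpinb6b and Il2ra.

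The cytoskeletal gene Fscn1 stood at 12.36, 12.48 and 12.54 on the 3 arrays of steady-state node DC and at 6.43, 7.10 and 7.26 in steady-state dermal DC. After DNFB the node arrays were at 12.63, 12.56 and 12.68 and the dermal DC arrays at 9.56, 10.25 and 8.32. Dermal DC after DNFB thus lay above every other dermal array and below every node array. The node-minus-dermal difference was 5.53 (SE 0.42) at steady state and 3.25 (SE 0.42) after DNFB. Among dermal populations without DNFB, P5 macrophages had 7.08 ± 0.64 (SD, n = 3), which overlapped dermal DC, and blood monocytes had the lowest level, 4.76 ± 0.20.

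Serpinb6b, the protease inhibitor, stood at 11.51, 11.33 and 11.70 in steady-state node DC and at 4.59, 5.20 and 5.86 in dermal DC. After DNFB the values were 11.50, 11.54 and 11.71 in the node and 7.94, 7.79 and 6.10 in dermal DC. Its level in dermal DC after DNFB again lay between those of the steady-state dermis and the node, with no overlap on either side. The node-minus-dermal difference was 6.29 (SE 0.38) without and 4.31 (SE 0.38) with DNFB. The monocyte and macrophage populations all had means between 3.81 (blood) and 4.57 (P5), and each overlapped its neighbour in that order.

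Il2ra, the receptor chain, had a mean below the low level in every population outside the node except dermal DC after DNFB. In steady-state dermal DC its arrays read 3.61, 4.11 and 3.86, and the 8 monocyte and macrophage populations had means between 3.47 and 3.89, all under the low level of 4.02. Node DC read 8.998, 9.21 and 9.76 at steady state and 10.24, 10.01 and 10.56 after DNFB. Dermal DC after DNFB, at 6.81, 6.77 and 5.54, was the 1 dermal population in which every Il2ra array was above 4.11. The node-minus-dermal difference was 5.46 (SE 0.31) at steady state and 3.90 (SE 0.31) after DNFB.

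Socs2, the feedback inhibitor, read 10.94, 10.91 and 11.25 in steady-state node DC and 5.72, 7.13 and 6.55 in dermal DC. After DNFB it read 11.32, 10.85 and 11.33 in the node and 7.63, 7.57 and 6.86 in dermal DC. Its dermal DC arrays overlapped between the conditions. Its spread within dermal populations was wide, with SDs up to 1.14 in P1. The node-minus-dermal difference was 4.57 (SE 0.52) at steady state and 3.81 (SE 0.52) after DNFB. A second Socs2 probe set gave 8.60 and 8.66 in node DC and 5.04 and 5.63 in dermal DC, without and with DNFB.

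H2-M2 and Clu were highest in steady-state node DC and stepped down through the node populations. H2-M2 read 11.26, 11.30 and 11.25 in steady-state node DC, 10.62, 10.60 and 10.63 after DNFB and 9.89, 10.30 and 9.21 in node CD64+ cells, with no overlap between these steps. Clu read 11.67, 11.70 and 11.58, then 10.67, 10.39 and 10.92, then 9.46, 9.75 and 8.48, again without overlap. The first step, the DNFB difference in node DC, did not pass for H2-M2 or Clu (limma adjusted p = 0.30 and 0.29). Over all genes 14.0% did not overlap at that step, and 21.6% between node DC and node CD64+ cells after DNFB. The node-minus-dermal difference at steady state was 5.31 (SE 0.24) for H2-M2 and 5.22 (SE 0.37) for Clu, and after DNFB 5.97 (SE 0.24) and 5.23 (SE 0.37).

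Apol7c had the widest span of measured means, from a lowest mean below the low level. It read 11.74, 11.75 and 11.71 in steady-state node DC and 11.36, 11.40 and 11.59 after DNFB, against 4.57, 5.54 and 4.25 and then 4.97, 4.74 and 3.19 in dermal DC. The 8 monocyte and macrophage populations lay between 3.05 and 3.75 on average. The node-minus-dermal difference was 6.95 (SE 0.33) at steady state and 7.15 (SE 0.33) after DNFB.

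Anxa3 differed from the others outside the node. Its level in blood monocytes was 7.67, 7.92 and 8.26, and its means in P4 and P5 macrophages were 7.60 ± 0.44 and 7.69 ± 0.58 (SD, n = 3), whereas dermal DC read 6.24, 5.65 and 4.80. Steady-state P2 had the lowest mean, 5.53 ± 0.58, and overlapped dermal DC. Node DC read 11.32, 11.21 and 11.33 at steady state and 11.28, 11.02 and 11.25 after DNFB, 5.72 (SE 0.38) and 5.20 (SE 0.38) above dermal DC.

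Dermal DC after DNFB were compared with steady-state dermal DC to ask whether genes of the node state appear in the skin during contact sensitisation. The arrays compared are also part of the contrast by which the genes were chosen, so the test is not free of that choice. Il2ra, Fscn1 and Serpinb6b rose, H2-M2 fell, and Socs2, Anxa3, Apol7c and Clu did not pass. Il2ra rose by 2.51 (SE 0.31, adjusted p = 3.03e-06) from a steady-state mean of 3.86, which is below the low level, so no fold is given. Fscn1 rose by 2.45 (SE 0.42, adjusted p = 0.00038) and Serpinb6b by 2.06 (SE 0.38, adjusted p = 0.00074), which are 5.46-fold and 4.16-fold. H2-M2 read 5.62, 6.53 and 5.73 before and 4.85, 4.56 and 4.54 after DNFB, and fell by 1.31 (SE 0.24, adjusted p = 0.00083). For these genes the arrays did not overlap between conditions.

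The differences that did not pass were 0.89 (SE 0.52) for Socs2, 0.42 (SE 0.38) for Anxa3, -0.49 (SE 0.33) for Apol7c and -0.998 (SE 0.37) for Clu. Their 95% intervals were wide, from -0.18 to 1.95 for Socs2 and from -1.75 to -0.25 for Clu. In all, 3 of 8 genes rose and 1 fell, where 2.11% of all genes rose and 2.06% fell (4.16% in both directions). With each array centred on its median, the split over all genes moved from 420 higher and 410 lower to 279 and 506, and the calls of the 8 genes did not change. The arrays of 4 of the 8 genes did not overlap, as for 21.7% of all genes. Since the choice of the genes used dermal DC values, nothing is read from these counts against the shares. Fitted on the arrays of these 2 groups alone, Serpinb6b no longer passed (adjusted p = 0.084).

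Replicate 3 of dermal DC after DNFB had the lowest value of its group for all 8 genes. The mean of the 8 genes was 6.66 and 6.78 on replicates 1 and 2 and 5.59 on replicate 3, against 5.42, 6.01 and 5.53 in steady-state dermal DC. Ccr7, at 11.33, 11.12 and 10.95 on the arrays after DNFB, differed less between them. Without that array Il2ra, Fscn1 and Serpinb6b rose by 2.93, 2.98 and 2.64.

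**Figure D2:**
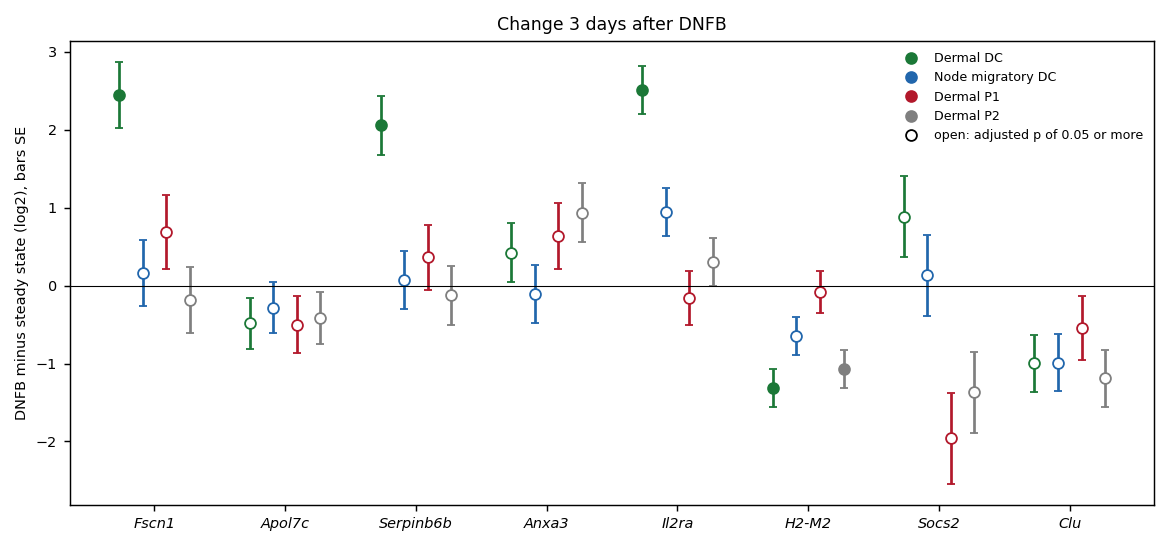
Difference after DNFB minus steady state (vertical axis, log2; bars are the SE) for each gene in dermal DC, node migratory DC, dermal P1 and dermal P2; filled circles passed at an adjusted p under 0.05. Filled circles are found in dermal DC for Fscn1, Serpinb6b, Il2ra and H2-M2 and in P2 for H2-M2.

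T cell genes moved in the same arrays as Il2ra. Beside the counts of marker genes below, 2.11% of all genes rose and 2.06% fell in dermal DC after DNFB. In dermal DC after DNFB, 4 of 9 T cell markers rose, among them Cd3d (1.94, SE 0.28) and Cd5 (1.21, SE 0.20), and 2 of 5 regulatory T cell markers, Foxp3 (0.83, SE 0.15) and Ctla4 (2.53, SE 0.37). The mean of the T cell list was 4.25 to 4.56 on the steady-state arrays and 5.11 to 5.39 after DNFB, and that of the regulatory T cell list 4.96 to 5.19 and 5.85 to 6.17. In node DC, where Il2ra was far higher, the mean of the T cell list was 5.06 at steady state and 4.97 after DNFB, and that of the regulatory T cell list 5.78 and 6.28. Within these lists Tnfrsf4 (8.96 and 9.87), Tnfrsf18 (6.99 and 8.02) and Cd8a (7.72 and 6.95) were highest there, and Cd28 (3.50 and 3.51) lowest; Foxp3 was at 4.4999 and 4.75 and Ctla4 at 3.68 and 3.84. The part of T cell RNA in the Il2ra rise was not tested. Macrophage markers moved as well: 1 of 11 rose, Fcgr1, by 2.04 (SE 0.34), and 5 fell, among them Cd163, which fell by 3.40 (SE 0.34), and the complement genes C1qc, which fell by 2.72 (SE 0.42), and C1qb, which fell by 2.12 (SE 0.45). The mean of the 11 was 8.09 to 8.44 before and 6.92 to 7.45 after DNFB. Keratinocyte markers averaged 6.59 to 7.28 before and 5.28 to 6.13 after DNFB. The part of these shifts in the results was not tested.

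In node migratory DC the DNFB comparison passed for 0 of the 8 genes in limma (3 had an unadjusted p under 0.05), where 1.34% of all genes passed in either direction. With array weights 2 genes passed, Il2ra (adjusted p = 0.040) and Clu (0.042), and with the arrays of these 2 groups alone Clu passed (0.036). Il2ra was 0.95 (SE 0.31) higher after DNFB (adjusted p = 0.17), Clu 0.99 (SE 0.37) lower (adjusted p = 0.29) and H2-M2 0.65 (SE 0.24) lower (adjusted p = 0.30). The arrays of these 3 genes did not overlap between conditions, nor did those of Fscn1 and Apol7c, whose differences were 0.16 (SE 0.42) and -0.28 (SE 0.33); over all genes 14.0% did not overlap. Serpinb6b, Socs2 and Anxa3 overlapped, with differences of 0.07, 0.13 and -0.11.

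In the Ly6Chi populations of the dermis 1 gene fell and none rose. In P1, with 2 arrays after DNFB, 0 of 8 genes passed in limma (1 had an unadjusted p under 0.05), where 0.637% of all genes passed. The widest difference was that of Socs2, which read 5.25, 7.10 and 5.02 before and 4.08 and 3.58 after (-1.96, SE 0.58, adjusted p = 0.13). The second Socs2 probe set moved less, with means of 5.00 before and 4.56 after. In P2, H2-M2 read 5.27, 5.67 and 4.75 before and 4.28, 4.17 and 4.01 after DNFB, and fell by 1.07 (SE 0.24, adjusted p = 0.013); 2.02% of all genes passed. The fall in P2 lost its call without replicate 2 of steady-state P2 (adjusted p = 0.11) and without replicate 3 of P2 after DNFB (adjusted p = 0.068). The other 7 genes did not pass in P2, where Clu was 1.19 (SE 0.37) and Socs2 1.37 (SE 0.52) lower and Anxa3 0.94 (SE 0.38) higher. In P2 the means of the second Socs2 probe set were 5.04 before and 4.75 after.

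The DNFB difference in dermal DC was compared directly with that in P2. The dermal DC arrays also took part in the choice of the genes, so this test is not free of it. For Il2ra it was 2.21 larger in dermal DC (SE 0.43, adjusted p = 0.017), while P2 itself read 3.43, 3.92 and 3.43 before and 3.97, 3.63 and 4.09 after DNFB, with both means below the low level. Fscn1 (2.64, SE 0.60, adjusted p = 0.051), Serpinb6b (2.18, SE 0.53, adjusted p = 0.083) and Socs2 (2.26, SE 0.74, adjusted p = 0.38) were of like size and did not pass, and 0.251% of all genes passed, 26 with a larger and 24 with a smaller difference in dermal DC (16 and 24 with arrays centred on their median). For H2-M2 the difference between populations was -0.24, with a 95% interval from -0.94 to 0.46. The Il2ra call was lost without any 1 of 5 arrays: replicate 2 of P2 at steady state (adjusted p = 0.063), replicate 1 of dermal DC at steady state (0.051), replicate 2 of P2 after DNFB (0.065), and replicates 1 (0.083) and 2 (0.055) of dermal DC after DNFB. Without replicate 3 of dermal DC after DNFB, Il2ra, Fscn1 and Serpinb6b all passed.

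The node CD64+ cells were compared with dermal P2, the CD64+, Ly6Chi, MHC II+ cells of treated skin. The question was whether cells sorted in the node on monocyte surface markers carry the same genes. The genes were chosen as higher in lymph node than in dermal DC, and this comparison again sets node against dermis. The test is therefore not free of that choice, and nothing is read from its counts against the shares of all genes. All 8 genes were higher in the node CD64+ cells and all 8 rose in the test, where 7.26% of all genes rose. Apol7c read 11.53, 11.37 and 10.47 in the node and 2.995, 3.27 and 2.87 in P2, a difference of 8.08 (SE 0.33, adjusted p = 1.09e-16); its P2 mean of 3.05 is below the low level, and so is that of Il2ra, 3.89. Serpinb6b read 11.46, 11.67 and 10.39 against 4.28, 4.56 and 4.47 (6.74, SE 0.38). Fscn1 read 12.59, 12.69 and 12.001 against 6.53, 5.98 and 5.55 (6.41, SE 0.42).

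Socs2 rose by 6.04 (SE 0.52), Il2ra by 5.81 (SE 0.31), H2-M2 by 5.65 (SE 0.24), Anxa3 by 4.21 (SE 0.38) and Clu by 3.64 (SE 0.37). No gene's arrays overlapped between the groups, where 27.5% of all genes did not overlap, and the adjusted p was highest for Clu, at 1.21e-08. The median difference was 5.93 for the 8 genes and -0.02 for all genes. The genes were chosen as higher in node than in dermis, so nothing is read from this gap. All 8 rose under every alternative and without any 1 array of either group, which the same choice favours.

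Replicate 3 of the node CD64+ cells stood apart from the others. It had the lowest value of its group for all 8 genes, with a mean of 9.82 against 10.88 and 11.02. On the same arrays Fcgr1 read 9.27 against 7.83 and 7.59, the mean of 11 macrophage markers 9.46 against 8.51 and 8.37, Flt3 8.55 against 10.17 and 10.09, and Ccr7 10.00 against 11.45 and 11.32. Without it the differences from P2 lay between 4.01 (Clu) and 8.40 (Apol7c). Conventional DC markers averaged 7.45 in node CD64+ cells, 7.44 in node migratory DC and 6.81 in P2, all after DNFB. In the same order classical monocyte markers averaged 7.52, 5.52 and 10.39, and macrophage markers 8.78, 4.68 and 9.46. The part of node DC RNA in the node CD64+ sort was not tested.

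**Figure D3:**
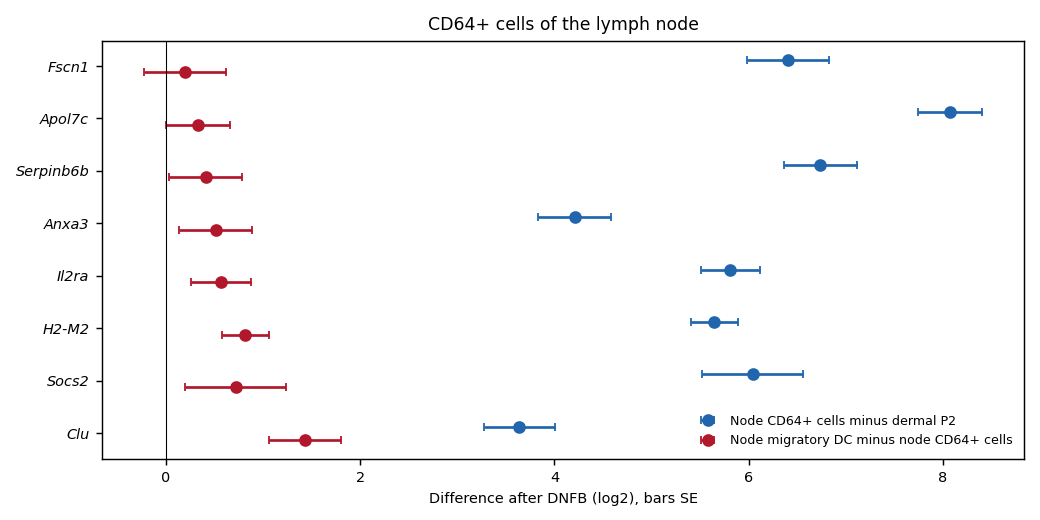
Differences after DNFB (horizontal axis, log2; bars are the SE) of node CD64+ cells minus dermal P2 in blue and of node migratory DC minus node CD64+ cells in red. The blue points lie between 3.64 and 8.08 and the red points between 0.20 and 1.43.

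Set beside node migratory DC after DNFB, the node CD64+ cells were lower for every gene on average, though for 6 of the 8 the arrays overlapped. These averages include replicate 3, the lowest CD64+ array for every gene. On replicates 1 and 2 Fscn1 read 12.59 and 12.69, against 12.56 to 12.68 in node DC. Il2ra read 10.31 and 10.21 against 10.01 to 10.56, and Apol7c 11.53 and 11.37 against 11.36 to 11.59. For Serpinb6b, Anxa3 and Socs2 replicate 1 was below the lowest node DC array and replicate 2 above it. For Clu and H2-M2 both were below it. The differences that overlapped were between 0.20 (Fscn1) and 0.72 (Socs2). Clu was 1.43 (SE 0.37) and H2-M2 0.82 (SE 0.24) lower in the CD64+ cells, without overlap; 21.6% of all genes did not overlap in either direction. These values are a description, since node DC took part in the choice of the genes.

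**Figure D4:**
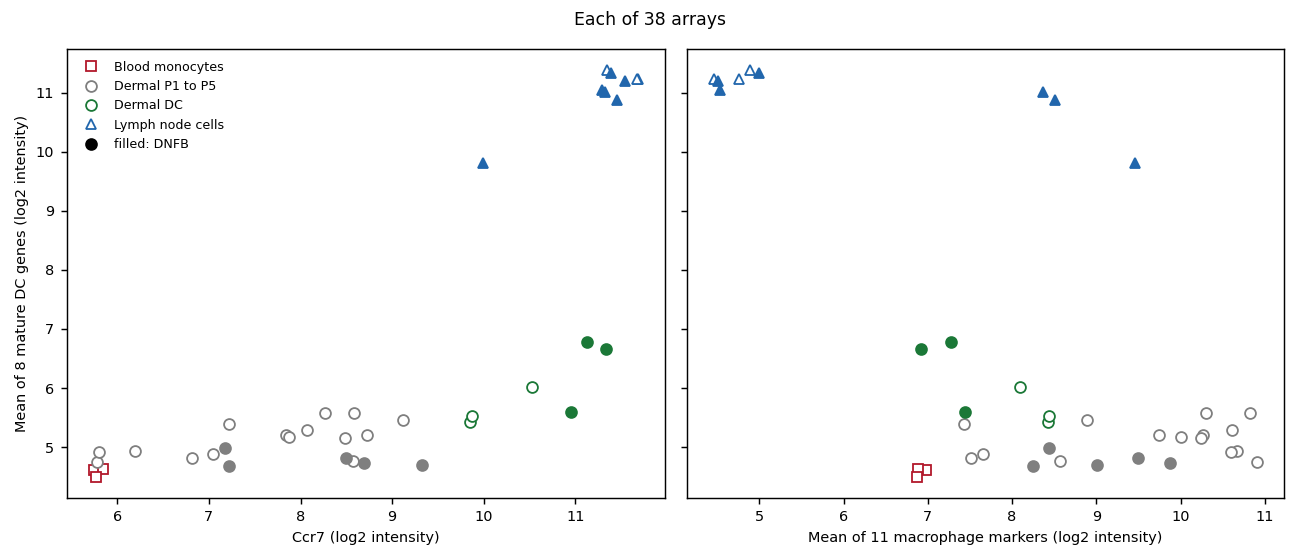
Each of the 38 arrays by the mean of the 8 genes (vertical axes, log2 intensity) against Ccr7 (left) and against the mean of 11 macrophage markers (right); squares are blood, circles dermis, triangles lymph node, filled symbols DNFB. Lymph node arrays lie between 9.82 and 11.39, all other arrays between 4.49 and 6.78, and the lowest triangle is replicate 3 of the node CD64+ cells.

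Ccr7, the receptor that guides DC to the node, was not graded in the same way. Its level was already 10.09 in steady-state dermal DC and 11.14 after DNFB, against 11.56 and 11.41 in node DC and 10.92 in node CD64+ cells. In P2 it was 8.80 and in blood monocytes 5.79. In dermal DC Ccr7 rose by 1.05 (SE 0.27, adjusted p = 0.019) after DNFB. Over the 13 population means its correlation with the mean profile of the 8 genes was 0.77.

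Monocyte and macrophage populations without DNFB were compared in the order of the sort. From blood monocytes to P1, Clu rose by 1.60 (SE 0.37, adjusted p = 0.0033) and Socs2 by 1.83 (SE 0.52, adjusted p = 0.018), and Anxa3 fell by 1.67 (SE 0.38, adjusted p = 0.0029); 12.6% of all genes passed, 1038 higher and 1482 lower (749 and 1826 with arrays centred on their median). Clu read 5.25, 5.47 and 4.68 in blood and 6.34, 7.76 and 6.10 in P1. Socs2 read 4.07, 4.19 and 3.61 in blood, with a mean below the low level, and 5.25, 7.10 and 5.02 in P1, and without replicate 2 of P1 its difference was 1.18 (adjusted p = 0.16); it also lost its call without replicate 3 of blood (adjusted p = 0.075). Means of the second Socs2 probe set were 4.56 in blood and 5.00 in P1. The other 5 genes did not pass, with Fscn1 at 1.20 (SE 0.42, adjusted p = 0.061).

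Skin cell RNA moved with this comparison. The keratinocyte list averaged 4.27 to 4.45 on the blood arrays and 6.73 to 7.83 on the P1 arrays, and the fibroblast list 5.06 to 5.11 and 7.06 to 10.23, with its highest value on replicate 2 of P1, where Clu and Socs2 were also highest. With the means of both lists as covariates the differences were 0.59 for Clu (adjusted p = 0.90), 1.16 for Socs2 (0.81) and -1.89 for Anxa3 (0.36). Over all genes the calls fell from 2520 to 293 with these covariates. Both lists separate the blood from the P1 arrays, so this fit cannot tell skin cell RNA from the difference between blood and dermis.

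H2-M2 passed in the steady-state comparisons of cells sorted as MHC II+ with cells sorted as MHC II negative. Of these, P1 and P2 were also sorted apart by CD64. After DNFB its levels in P1 and P2, 4.09 and 4.16, came from arrays that overlapped; that pair was not tested. It rose by 1.05 (SE 0.24, adjusted p = 0.014) from P1 to P2 and by 1.45 (SE 0.24, adjusted p = 0.00098) from MHC II negative P4 to MHC II+ P5, where 2.09% and 0.492% of all genes passed. Its arrays read 4.03, 4.03 and 4.47 in P1, 4.88, 4.499 and 4.22 in P4 and 5.78, 6.14 and 6.03 in P5. No other of the 8 genes passed in either comparison, although Fscn1 was 1.57 (SE 0.42) higher in P5 than in P4 (adjusted p = 0.11). The P2 call was lost without either of replicates 1 and 2 of P1 (adjusted p = 0.057 and 0.051) or of P2 (0.055 and 0.12). From P2 to P3, 0 of 8 passed in limma (1 had an unadjusted p under 0.05), with H2-M2 at 0.80 (SE 0.24, adjusted p = 0.16) and 0.371% of all genes passing.

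Other genes of DC maturation and migration were read from a list of 30, of which 29 were measured. In dermal DC after DNFB 8 rose and 2 fell, where 2.11% of all genes rose and 2.06% fell. The list was written with earlier results of these data known, so nothing is read from its counts against the shares. Stat4, a transcription factor of cytokine signalling, rose by 3.72 (SE 0.36), Tbc1d4 by 1.69 (SE 0.34), Tnfrsf9 by 1.66 (SE 0.28), Cd274, which encodes PD-L1, by 1.45 (SE 0.27) and Cd200 by 1.40 (SE 0.36). The chemokine Ccl17 fell by 1.47 (SE 0.30) and the cytokine subunit Ebi3 fell by 0.89 (SE 0.23). In node DC after DNFB 4 rose and 0 fell (9 had an unadjusted p under 0.05), where 1.34% of all genes passed in either direction. The 4 were the costimulatory ligands Cd80 (2.25, SE 0.28) and Cd86 (2.17, SE 0.26), Cd200 (1.81, SE 0.36) and Cd274 (1.43, SE 0.27).

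In node CD64+ cells against P2, 24 of the 29 rose and 0 fell in limma (28 had an unadjusted p under 0.05), with a median of 2.02. Over all genes 7.26% rose and 5.37% fell there. The chemokines Ccl17 and Ccl22 rose by 5.78 (SE 0.30) and 5.49 (SE 0.35), Cd200 by 4.25 (SE 0.36) and the costimulatory receptor Cd40 by 2.59 (SE 0.23). In P2 after DNFB Ccl17 fell by 4.31 (SE 0.30) and Ccl22 fell by 1.83 (SE 0.35), which is the reference of this comparison.

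Relatives of the 8 genes moved in both directions. In node CD64+ cells against P2, where 7.26% of all genes rose and 5.37% fell, 3 of 14 clade B serpins rose and 3 fell: Serpinb9, an inhibitor of granzyme B, rose by 5.79 (SE 0.33), Serpinb1a by 2.94 (SE 0.56) and Serpinb9b by 2.44 (SE 0.26), and Serpinb10 fell by 3.07 (SE 0.45), Serpinb2 fell by 2.75 (SE 0.40) and Serpinb8 fell by 2.34 (SE 0.30). Of 11 annexins Anxa4 rose by 1.41 (SE 0.23) and Anxa1 fell by 2.89 (SE 0.24). Of the 7 SOCS family genes Socs5 rose by 0.58 (SE 0.17), and Socs3 fell by 2.31 (SE 0.22) and Cish fell by 1.23 (SE 0.30). Of 6 measured apolipoprotein L relatives 1 rose, Apol10b, by 2.60 (SE 0.33).

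Of 14 measured nonclassical MHC class I genes 3 rose there, Cd1d1 by 2.83 (SE 0.36), H2-Q4 by 1.62 (SE 0.23) and Cd1d2 by 0.94 (SE 0.22). Of 19 actin genes the crosslinker Actn1 rose by 4.76 (SE 0.31) and Pfn1 by 0.30 (SE 0.09), and Ezr fell by 1.31 (SE 0.12). Among 7 measured genes of the interleukin 2 and 15 receptor pathway Il15 rose by 2.26 (SE 0.56), Il15ra by 3.09 (SE 0.29) and Stat5a by 0.97 (SE 0.24). Il2rb, the beta chain that signals beside CD25, did not pass there, and rose by 0.91 (SE 0.20, adjusted p = 0.0047) in dermal DC and by 0.86 (SE 0.20, adjusted p = 0.015) in P2 after DNFB. Il2, the ligand, lay between 3.24 and 3.49 in all 13 populations. The calcium channel list, which holds the relatives of the unmeasured Cacnb3, had 1 rise among 14, Cacnb1, by 1.40 (SE 0.24).

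In dermal DC after DNFB, where 4.16% of all genes passed, 2 of 14 serpins, 1 of 11 annexins, 1 of 19 actin genes and 1 of the 7 genes of the interleukin 2 and 15 receptor pathway (Il2rb, above) passed. Of the serpins Serpinb2 fell by 2.59 (SE 0.40) and Serpinb8 fell by 1.25 (SE 0.30). Of the annexins Anxa8 fell by 1.98 (SE 0.54), and of the actin genes Ezr fell by 0.46 (SE 0.12). Of the SOCS, apolipoprotein L and nonclassical MHC class I relatives 0 passed in limma (0, 1 and 1 had an unadjusted p under 0.05). Kmo and Kynu, enzymes of tryptophan breakdown listed beside Il4i1, rose by 1.64 (SE 0.39) and 1.16 (SE 0.28).

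The genes whose population means were most like the mean profile of the 8 were Nudt17 (r = 0.997), Stap2 (0.995), Slc4a8 (0.995), Galnt12 (0.992), Ly75 (0.992), Slco5a1 (0.991), Spint2 (0.991), Lad1 (0.990), Rgs12 (0.990) and Mical3 (0.989). These are Pearson correlations over 13 populations, most of which are uniformly low, so the 3 node populations set them. Ly75 encodes DEC-205, an endocytic receptor of DC. Since the same population means chose these genes, no test of their differences between populations is given.

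**Figure D5:**
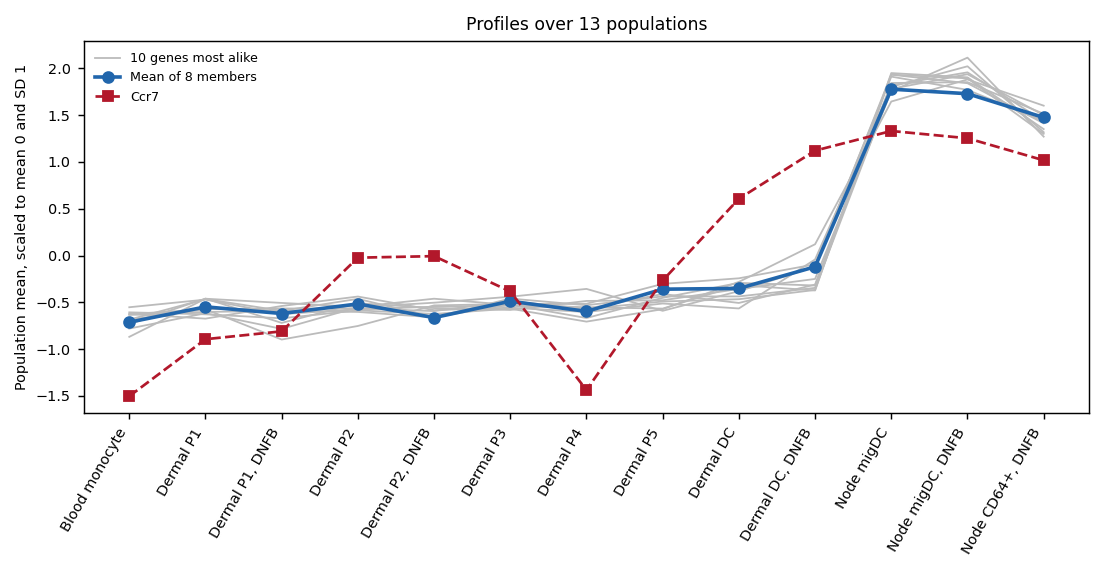
Population means, each profile scaled to mean 0 and SD 1 over the 13 populations (vertical axis, SD units), for the mean of the 8 genes in blue, the 10 genes most like it in grey and Ccr7 in red; lines join populations only to guide the eye. The blue and grey profiles step up at the 3 node populations, whereas Ccr7 is already raised in dermal DC.

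By single gene, the closest profiles were Mreg for Fscn1 (r = 0.989) and Socs2 (0.977), Nudt17 for Apol7c (0.995), Ly75 for Serpinb6b (0.993), Serpinb6b for Il2ra (0.992), Nostrin for H2-M2 (0.990), Arc for Clu (0.989) and Hlx for Anxa3 (0.962). Among the 28 pairs of the 8 genes the correlation lay between 0.76 and 0.99, with a median of 0.93. Over the 10 populations outside the node it ran from -0.73 to 0.93, with a median of 0.19. Serpinb6b with Il2ra (0.93), Fscn1 with Serpinb6b (0.92), Fscn1 with Il2ra (0.84) and Apol7c with Socs2 (0.82) were highest there. Anxa3 was below 0 with each of the other 7 genes. Outside the node Fscn1, Serpinb6b and Il2ra each had their highest mean in dermal DC after DNFB, at 9.38, 7.28 and 6.37. Their next highest means were 7.08, 5.22 and 3.89, the last below the low level. The correlations among these genes therefore rest largely on dermal DC after DNFB, where their rise is given above. All these correlations rest on shared populations and arrays and are given as a description.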

How the data were processed

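The authors deposited log2 intensities of 34760 probe sets, made with RMA; the submitters' processing notes also name affy, and give no version for either. No source used here ties arrays to the 3 chip batches described, so no batch term was fitted, and the number of arrays limits the precision. Array medians lay between 4.39 and 4.65. Replicates correlated at 0.947 to 0.993 over genes. Probe sets naming 1 symbol (21640) were kept, those naming several (1321) or none (11799) left out, and the one with the highest mean stood for each of 19937 genes.

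One mean for each of the 13 populations was estimated with limma 3.58.1 (R 4.3.3), which pooled the spread over all arrays. All p-values named adjusted are from limma, by Benjamini-Hochberg over all genes within each of 10 comparisons. "Rose", "fell" and "passed" mean an adjusted p below 0.05. Exact permutation of 3 against 3 arrays cannot reach that level. The genes, lists and comparisons were chosen with earlier results of these data known. Genes named beside the 8 are up to 5 of a list by adjusted p, relatives of the 8, Ccr7, sort markers and the closest profiles. The fit was tested on simulated data. Promoters are from RefSeq (GRCm38.p6). Alternatives changed the normalization, the filter, the probe-set rule, the variance model, the covariates (means of keratinocyte and of fibroblast markers), the blocks, the fold minimum and the arrays included.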

Additional observations from a re-analysis of the deposited data

Results flagged for a closer look

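Il2ra differed between populations in its response to DNFB. Its difference after DNFB was 2.21 (SE 0.43, adjusted p = 0.017 in limma) larger in dermal DC than in dermal P2, by a test of the difference itself. All 3 dermal DC arrays after DNFB were above all 3 before, while the P2 arrays of the 2 conditions overlapped. The dermal DC arrays also took part in the choice of the genes, and the P2 means and that of steady-state dermal DC were below 4.02, the low level of the array scale used here. The call was lost with the compared groups alone (adjusted p = 0.11) and without any 1 of 5 of the 12 arrays.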

How the results depend on the processing

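Of 1480 single-gene results under an alternative, 1439 kept their direction and their side of the threshold, 25 lost their call, 16 gained one and 0 reversed. The count of the 8 genes called was the same under every alternative for node CD64+ cells against P2 (8), DNFB in P1 (0) and P3 against P2 (0), and ranged from 3 to 5 around 4 for DNFB in dermal DC. For the difference between the DNFB effects in dermal DC and P2 it was 1, and became 2 with the source number as a random block, without low genes, with the mean of all probe sets and with an intensity trend, 3 with array weights, 0 with the compared groups alone, and 0 to 3 when 1 array was left out. For DNFB in node DC it was 0, with 2 under array weights and 1 with the compared groups alone. For DNFB in P2 it was 1, with 0 under skin cell covariates, 0 with the compared groups alone and 0 to 1 without 1 array. For P1 against blood it was 3, with 0 under the covariates and 1 with the compared groups alone. For P2 against P1 it was 1, with 0 for the compared groups alone and 0 to 1 without 1 array, and for P5 against P4 it was 1, with 0 for the compared groups alone. With the mean of its probe sets Socs2 was 1.14 higher in P1 than in blood (adjusted p = 0.066). Fits on the compared groups alone test the same differences with fewer arrays behind the spread; the cause of the other changes was not tested. With the replicate number as a block the counts of the 8 genes were unchanged in all 10 comparisons (for example 4 for DNFB in dermal DC). Those over all genes moved little (829 against 830 there). Deviations of same-numbered arrays correlated at -0.26 to 0.21 in the comparisons with a test, highest for P5 against P4 and P2 against P1. For node DC against dermal DC after DNFB, which was not tested, they reached 0.35. Between steady state and DNFB, arrays with the same replicate number have different source numbers, so this block cannot test pairing there.

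Over all genes the counts moved by more than 1.5 times in these cases: DNFB in dermal DC 830, from 490 (2-fold minimum) to 1373 (array weights); DNFB in node DC 268, from 162 without replicate 1 of node DC after DNFB to 765; DNFB in P1 127, from 1 (compared groups alone) to 261 (covariates); DNFB in P2 402, down to 80 (compared groups alone); the difference of DNFB effects 50, from 22 to 83; node CD64+ cells against P2 2517, down to 1551 (2-fold minimum); P1 against blood 2520, down to 293 (covariates); P2 against P1 416, down to 62; P3 against P2 74, from 19 to 176; and P5 against P4 98, down to 19. Without 1 array these counts moved by over 1.5 times for DNFB in dermal DC (506 without replicate 1 after DNFB), P1 (201 and 83 without replicates 1 and 3 at steady state, 31 without replicate 1 after DNFB), P2 (241 and 251 without replicates 2 and 3 after DNFB), P3 against P2 (167 without replicate 1 of P2), and the difference of DNFB effects (24 to 33 without any of 5 arrays).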
